A study of Mus musculus with 24 samples.

Results

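The muscle coat of the colon is built from smooth muscle cells, and 10 genes of their contractile machinery were followed here: Acta2, Actg2, Myh11, Tagln, Cnn1, Des, Myl9, Smtn, Mylk and Tpm2. They were picked by gene name. The arrays held 18 probes for them out of 41174 probes for 27962 gene names. The probe with the highest mean intensity stands for each gene below and is called its main probe, and the other 8 probes are reported beside it.

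In smooth muscle, actin of the thin filaments slides along myosin of the thick filaments. Calcium bound to calmodulin switches on myosin light chain kinase, which phosphorylates the regulatory light chain and so starts the contraction. The wall of the colon holds a circular and a longitudinal layer of these cells, while in liver they are found mainly around blood vessels and bile ducts.

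The samples came from 12 female C57BL/6 mice sampled at 12 weeks of age. All mothers ate a high-fat diet in which selenium and folate were low (HF-low) from 7 days before mating until the pups were weaned at about 28 days. After weaning, 6 offspring stayed on this diet (HF-low-low) and 6 were moved to a high-fat diet sufficient in both nutrients (HF-low-suf), so that both groups shared the maternal diet and the fat content. Whole colon and liver of each mouse were measured, and RNA of the muscle coat was therefore mixed with RNA of mucosa, nerves and attached fat. On each of the 24 arrays the sample carried Cy3, and Cy5 labelled a common reference, described in the labels as pooled from the RNA of both tissues of all mice. Values are log2 of sample over pool, centred within each array. The dyes were not swapped, so a value of 0 need not mean a level equal to that of the pool. Above or below the pool means above or below this 0. A ratio compares samples for one probe and does not give the level of one gene against another.

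Cy3 signals had a median of 3.75 to 7.10 times background, and 26.1% to 71.9% of spots were well above background in Cy3. Colon HF-low-suf replicate 5 and liver HF-low-suf replicate 4 stood apart with a Cy5 signal of 17.7 and 12.3 times the background. On the other arrays it was 5.13 to 7.20 times. Replicates of a group correlated at r = 0.777 to 0.960 over all probes. The labels of the tissues held: 11 of 12 colon epithelium genes were higher in colon, with a median difference of 4.29 on the log2 scale, and 6 of 6 hepatocyte genes were lower, with a median of -5.76. No spot of the 18 probes was saturated.

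The contractile genes were higher in colon than in liver for 10 of 10 main probes (limma with Benjamini-Hochberg adjustment over all probes at 0.05). Of all probes tested, 19.0% were called higher in colon and 19.4% lower. The differences between the tissues ran from 1.20 to 6.52 on the log2 scale with a median of 3.62, while the median of all probes was -0.019. Under some alternatives a gene's value moved by over 1.5-fold: Myh11, Cnn1 and Smtn were 5.95, 7.14 and 1.93 with the processed signals of the scanner software, and Acta2 and Mylk were 2.75 and 2.17 with the mean of all their probes. In a bulk sample, fewer cells of a type and less RNA per cell cannot be told apart. The mice were also set against themselves in an exact two-sided sign-flip test, whose smallest possible P for 12 mice is 0.000488. This P was reached by 9 of the 10 genes, since colon exceeded liver in each mouse for them. Without the pair of arrays with bright Cy5, 10 of 10 genes were again called.

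**Figure D1:**
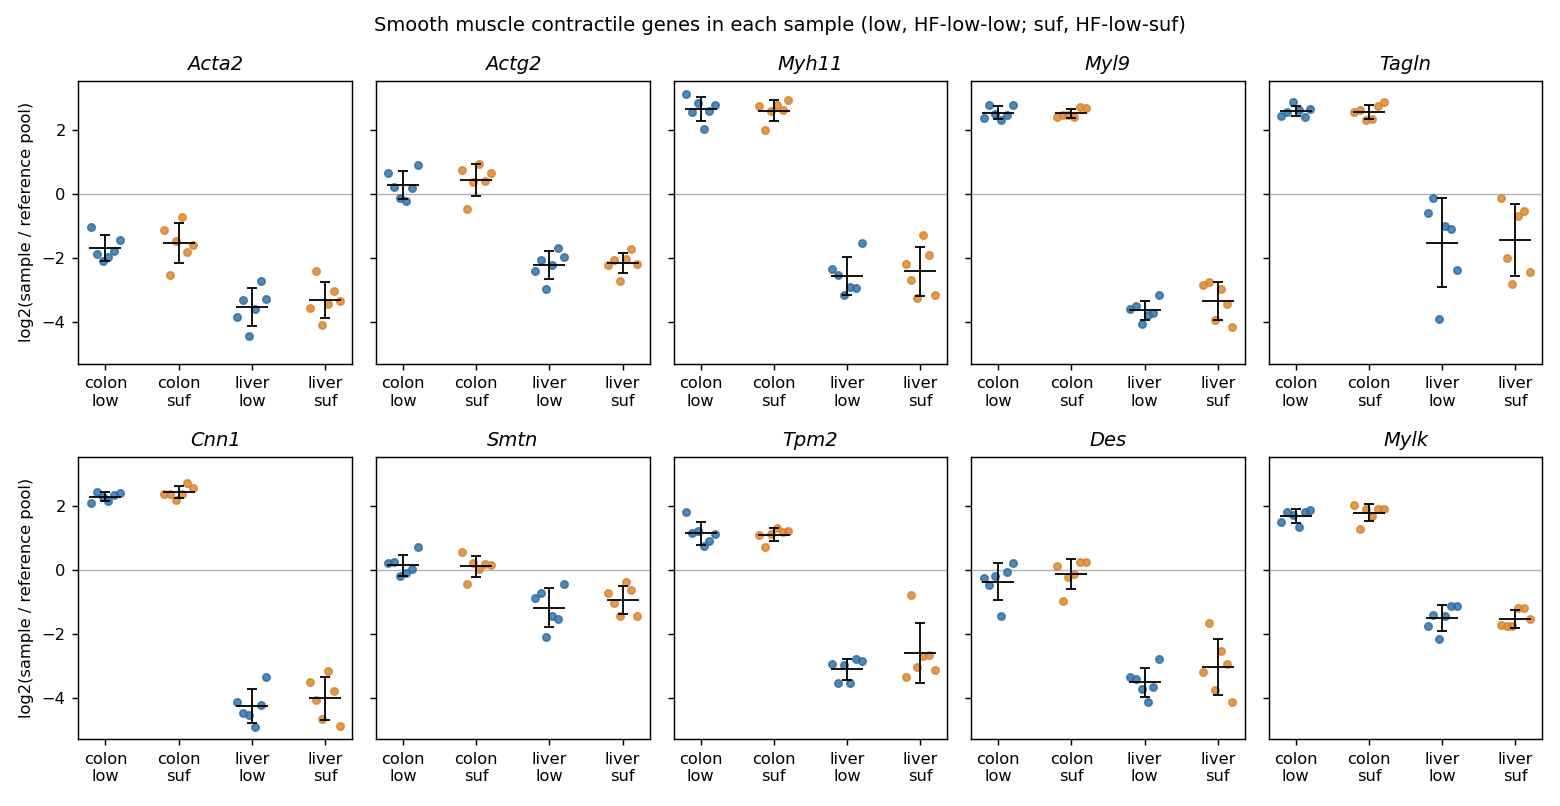
Log2 ratio of sample to reference pool (y axis) for the main probe of each of the 10 genes, by tissue and diet (x axis; low, HF-low-low; suf, HF-low-suf; 6 samples per group, points are single samples, and the black line with its bar is the group mean with the SD). Colon and liver points overlap for Acta2 and Smtn and are separate for the other 8 genes, and the 2 diets overlap throughout.

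Thick filaments are made of the smooth muscle myosin heavy chain, Myh11, together with light chains. Its 12 colons had a lowest value of 1.99, a median of 2.70 and a highest of 3.14, and its 12 livers -3.24, -2.62 and -1.28. Colon was thus above the pool and liver below it in every sample, with no overlap. The difference was 5.14 ± 0.19 (SE) on the log2 scale, or 35.2-fold (limma adjusted P = 2.2e-18). In liver Myh11 was well above background on 7 of 12 arrays. The probe spans chr16:13741638-13744562 on the minus strand (mm7), the build of the array files.

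Myl9 encodes the regulatory light chain that the kinase phosphorylates. Its values were 2.32, 2.49 and 2.80 in colon and -4.15, -3.55 and -2.74 in liver (lowest, median and highest of 12). The 12 colons lay within a narrow band for Myl9, and no liver came near them. The tissues differed by 6.03 ± 0.13 (SE), or 65.4-fold (limma adjusted P = 1.8e-23).

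Mylk, the kinase itself, had colon values of 1.29, 1.82 and 2.02 and liver values of -2.17, -1.50 and -1.12 (lowest, median and highest of 12). Its difference of 3.25 ± 0.11 (SE), or 9.53-fold, was smaller than that of its substrate. A further bright Mylk probe gave 3.33. Another, A_51_P272407, was not well above background on any array, differed by -0.06 and was not called (adjusted P = 0.78).

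The thin filament genes included the largest and some of the smallest differences. Calponin, Cnn1, binds actin and was 91.5-fold higher in colon, with a log2 difference of 6.52 ± 0.16 (SE; limma adjusted P = 1.6e-22). Its colon values were 2.10, 2.37 and 2.73 and its liver values -4.91, -4.19 and -3.18 (lowest, median and highest of 12). All colons stood above all livers, and Cnn1 was well above background on 11 of 12 liver arrays.

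Tagln encodes transgelin, another actin-binding protein. The colons lay close together, at 2.32, 2.61 and 2.90, whereas the livers spread from -3.90 over a median of -1.05 to -0.11. The SD was 0.19 among colons and 1.21 among livers. Tagln differed by 4.07 ± 0.31 (SE), or 16.8-fold (limma adjusted P = 1.9e-11). Its other probe, which lies 819 bases upstream, gave 4.30 ± 0.17 (SE) and a liver SD of 0.62.

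Tropomyosin 2, Tpm2, lies along the actin filament. Colon values were 0.72, 1.14 and 1.80 and liver values -3.55, -2.97 and -0.78. The highest liver, HF-low-suf replicate 2, stood apart from the other 11, which ended at -2.68. The tissue difference was 3.99 ± 0.19 (SE), or 15.9-fold, and the other Tpm2 probe gave 3.66.

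Actg2, the gamma-actin of enteric smooth muscle, had values of -0.46, 0.40 and 0.94 in colon and -2.98, -2.12 and -1.70 in liver. Most colons were thus close to the pool, and the livers were lower without overlap. The difference was 2.55 ± 0.15 (SE), or 5.87-fold (limma adjusted P = 9.7e-14). The arrays held 1 probe for Actg2.

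Acta2, the alpha-actin of vascular and visceral smooth muscle, had 5 probes, and they differed among themselves. The main probe gave -2.53, -1.68 and -0.70 in colon and -4.45, -3.40 and -2.40 in liver, below the pool in every sample of both tissues. Colon and liver overlapped there, and colon was the higher in 11 of 12 mice. The mouse that went the other way, HF-low-suf replicate 2, had -2.53 in colon and -2.40 in liver. The difference of 1.81 ± 0.20 (SE), or 3.51-fold, was still called (limma adjusted P = 1.7e-08, exact sign-flip P = 0.00098). The next brightest probe, A_52_P420504, printed in 10 spots, had colons at 1.63, 1.89 and 2.27 and livers at -3.04, -2.49 and -1.99. This probe separated the tissues fully, by 4.46 ± 0.11 (SE) or 22.0-fold. A_52_P210078 was not well above background in any liver, and its colons were at least 26.4-fold higher. A_52_P239556 differed by 2.10, higher in colon in 11 of the 11 mice with both values, but was well above background on only 1 liver array. A_52_P644232 was not well above background on any array and differed by 0.43.

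The main Acta2 probe lies in coding sequence, which the actin genes share closely, and is shown because its ratios stood apart from those of the other bright Acta2 probes. The Tagln probe is the upstream one, shown because its pattern over the colons differed from that of the main probe. Both are 5′ to 3′, with positions in mm7: Acta2 at chr19:33949738-33952992 (minus strand, across an intron) and Tagln at chr9:45888956-45889015 (minus strand).
Acta2, A_51_P450957: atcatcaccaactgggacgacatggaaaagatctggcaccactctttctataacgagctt
Tagln, A_52_P517683: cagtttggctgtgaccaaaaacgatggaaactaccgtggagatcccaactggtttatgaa
Striated muscle genes lay below the pool in both tissues for 12 of 12 genes. This also held for 8 of 18 other smooth muscle structure genes, 7 of 11 non-muscle paralogues and 5 of 9 fibroblast genes. Of contraction signalling genes it held for 5 of 22, and of hepatocyte and adipose genes for 0 of 6 each. The share over all probes was not counted. Their mean ratios ranged from -5.71 to -0.19 in colon and from -4.98 to -2.26 in liver, and all 12 were well above background in Cy3. Why these genes lay below 0 in both tissues, and what the pool held, was not tested. Skeletal alpha-actin, Acta1, was at -4.66 in colon and -4.69 in liver. Of the other genes, Tpm1 of the smooth muscle structure list was at -4.89 and -4.85. Whether RNA of striated muscle in the pool or in the samples, or binding of related transcripts to the actin probes, had a part in the Acta2, Des and Tpm2 ratios was not tested.

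Smoothelin, Smtn, is a cytoskeletal protein of contractile smooth muscle cells. It had the smallest difference of the 10 genes, 1.20 ± 0.15 (SE) or 2.30-fold (limma adjusted P = 2.5e-07). Colon values were -0.45, 0.17 and 0.72 and liver values -2.09, -0.96 and -0.38, so the highest liver was just above the lowest colon. Colon was nevertheless higher in each of the 12 mice. Smtn was well above background on 7 of 12 liver arrays.

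Desmin, Des, forms the intermediate filaments that tie the contractile apparatus together in all muscle. Its colons were at -1.46, -0.16 and 0.24 and its livers at -4.15, -3.40 and -1.67. The tissues did not overlap, but the gap was small, because HF-low-low replicate 4 was low among colons and HF-low-suf replicate 2 was high among livers. Des differed by 3.04 ± 0.22 (SE), or 8.20-fold (limma adjusted P = 4.4e-12).

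**Figure D2:**
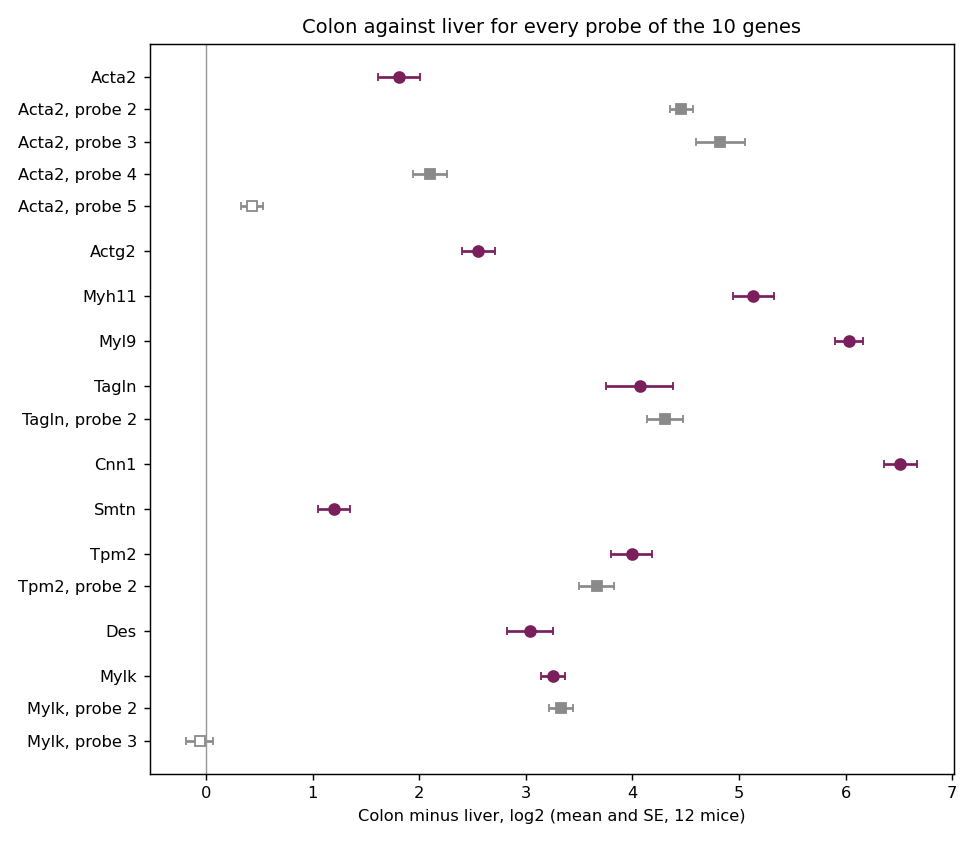
Colon minus liver on the log2 scale (x axis; mean and SE over 12 mice) for each of the 18 probes of the 10 genes (y axis). For Acta2 A_52_P239556 only 11 mice had both values. The main probes run from 1.20 for Smtn to 6.52 for Cnn1, and the Mylk probe that was not well above background lies at -0.06. The highest Acta2 point is that of A_52_P210078, which was not well above background in any liver, so its place gives only a bound of at least 26.4-fold.

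Other genes of the smooth muscle cell followed a mixed pattern between the tissues. In the list of other smooth muscle structure genes, 11 of 18 were higher in colon, 3 were lower and 4 were not called, with a median of 0.64. The largest differences were 4.58 for Pdlim3 and 4.27 for Pgm5, both proteins of actin anchorage. The lowest were -0.73 for dystrophin, Dmd, and -0.61 for Ldb3. Of 22 contraction signalling genes, 15 were higher, 1 was lower and 6 were not called, with a median of 0.54. The highest measured ratios were those of Ppp1r12b, a subunit of myosin phosphatase, at 2.94 with 4 of 12 livers well above background, and phospholamban, Pln. Pln was not well above background in any liver and was at least 1.91-fold higher in colon. The lowest were the calcium channel of the endoplasmic reticulum, Itpr1, at -0.35, and Dapk3, which was not called, at -0.30.

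Of 11 transcription regulators of smooth muscle, 8 were higher in colon and 3 were not called, with a median of 0.97. Foxf2, a forkhead factor of the gut mesenchyme, was not well above background in any liver and was at least 8.94-fold higher in colon. Srf, the factor that binds CArG boxes, differed by 1.81. The lowest of those bright enough to name were Heyl at -0.002, not called, and Mkl1, a cofactor of Srf, at 0.96. Barx1, Foxf1a and Mkl2 were dim. Among 11 non-muscle paralogues of the contractile genes, 8 were higher, 1 was lower and 2 were not called, with a median of 1.05. Vim was 2.33 and Cnn2 1.58 higher in colon, Cnn3 was at -1.01 and Myh10, not called, at -0.18.

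Other cell types of the colon wall differed between the tissues as well. Higher in colon were 7 of 9 fibroblast genes, 9 of 14 genes of enteric neurons, glia and pacemaker cells, 5 of 6 pericyte genes and 5 of 6 adipose genes. The medians were 1.98, 1.47, 1.30 and 3.61. None of 8 endothelial genes was higher in colon, and 5 were lower. Of the 5 genes of hepatic stellate cells, pericyte-like cells of the liver, 3 were lower in colon. Of 12 striated muscle genes 1 was higher, Actc1, the cardiac alpha-actin, at 3.43, and 7 were lower. The lowest were Pvalb at -1.25 and Mb at -0.89.

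The promoters of 7 of the 10 genes were present in the RefSeq windows of 250 bases before to 50 after the gene start (GRCm38.p6). They were searched for the CArG box, the element that serum response factor binds, because this element is known from many smooth muscle genes. The strict CArG box has CC, then 6 bases that are A or T, then GG. It is its own reverse complement, so 1 strand covers both. Among all 32851 windows, 1.63% held a strict box, and among the 7 genes Myl9 did. A wider form, with 1 of the 6 central bases C or G, was added after the sequences were seen. Strict or wider boxes were in 9.98% of all windows and in those of 2 of the 7 genes, Acta2 and Myl9. The boxes are printed on the gene's strand in capitals with 10 bases on either side. No match in the windows of Cnn1, Des, Mylk, Smtn and Tpm2 says only that these letters were not found there. Windows for Actg2, Myh11 and Tagln were not used here.
Acta2, wider form, chr19:34255438-34255467 (minus strand): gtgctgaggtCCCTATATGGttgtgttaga
Acta2, wider form, chr19:34255388-34255417 (minus strand): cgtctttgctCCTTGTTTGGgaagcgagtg
Myl9, strict, chr2:156775293-156775322 (plus strand): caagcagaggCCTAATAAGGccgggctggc
Myl9, wider form, chr2:156775355-156775384 (plus strand): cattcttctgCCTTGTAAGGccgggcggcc
The Acta2 boxes lie at -84 to -75 and -34 to -25 from the gene start, and the Myl9 boxes at -161 to -152 and -99 to -90.

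The next question was whether the post-weaning diet changed these genes in colon. None of the 10 passed the threshold of the methods, an unadjusted P below 0.01 with a fold change above 1.5, which 0.168% of all probes passed, 69 with all arrays and 23 to 257 without any 1 of them. No probe of any gene passed Benjamini-Hochberg adjustment in limma, while 1233 of 41174 had an unadjusted P below 0.05. Differences are HF-low-suf minus HF-low-low, with the direction taken from the dye labels, which give Cy3 to the sample. The study's text names none of the 10 genes by symbol and, for most of the diet changes that it lists, gives the opposite sign, though its signs do not all run 1 way. The study does report liver changes in the proteins actin and tropomyosin, measured in gels of pooled protein and not as RNA. The estimates ran from -0.05 to 0.24 on the log2 scale, 5 above and 5 below 0, with a median of 0.043 (all probes, -0.006). None had an unadjusted P below 0.05 in limma, and the exact permutation P over the 924 assignments of the mice lay between 0.17 and 0.85.

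Des had the largest estimate in colon. Its values were -1.46, -0.21 and 0.20 in HF-low-low and -0.98, -0.01 and 0.24 in HF-low-suf (lowest, median and highest of 6). The diets overlapped over almost their whole range, and the difference was 0.24 ± 0.26 (SE; exact permutation P = 0.47). Actg2 had -0.23, 0.22 and 0.92 against -0.46, 0.53 and 0.94, a difference of 0.17 ± 0.24 (SE; exact permutation P = 0.55). Cnn1 had the lowest exact P, 0.17, with 2.10, 2.31 and 2.45 against 2.19, 2.38 and 2.73 and a difference of 0.14 ± 0.13 (SE). Myh11 had 2.03, 2.71 and 3.14 against 1.99, 2.70 and 2.94, and a difference of -0.05 ± 0.19 (SE). The 95% intervals of the 10 genes together reached from -0.46 to 0.80, so a rise in HF-low-suf of up to 1.74-fold and a fall of up to 1.37-fold lay within them.

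Each slide carried 1 array of every group, which allowed the diets to be compared within slides. The 6 slides did not share a direction for any of the 10 genes in colon: from 2 of 6 slides (Acta2) to 5 of 6 (Mylk) had the higher value in HF-low-suf. Slides 1 to 3 and slides 4 to 6 were scanned on different days, and the diet estimates of the scan days differed. For Myh11 the mean difference was -0.40 on the first day and 0.30 on the second. For Tpm2 it was -0.40 and 0.31, and for Des -0.06 and 0.55. None of the 10 genes was called on either day, and the difference between days was not tested.

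In liver none of the 10 genes passed the threshold, which 0.114% of all probes passed, 47 with all arrays and 9 to 304 without any 1 of them. No probe passed adjustment in limma, with 880 at an unadjusted P below 0.05. The estimates ran from -0.02 to 0.50, 9 above 0 and 1 below, with a median of 0.23 (all probes, 0.006). The exact permutation P lay between 0.24 and 0.92. Tpm2 was largest, with -3.55, -2.97 and -2.81 in HF-low-low and -3.35, -2.86 and -0.78 in HF-low-suf, and a difference of 0.50 ± 0.35 (SE; exact permutation P = 0.24). Its groups overlapped apart from HF-low-suf replicates 2, 4 and 5, of which replicate 2 was far above the rest. Des followed with 0.47 ± 0.35 (SE; exact permutation P = 0.28), from -4.15, -3.55 and -2.78 to -4.15, -3.08 and -1.67. The 95% intervals, wider than in colon except for Actg2, together reached from -1.25 to 1.42 and admitted a fall of up to 2.38-fold and a rise of up to 2.67-fold. The widest was that of Tagln.

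In the liver with the highest Des and Tpm2, HF-low-suf replicate 2, the mean of the 12 striated muscle genes was 1.54 above its mean over the livers. In the other 11 livers this mean lay between -0.73 and 0.31. All 12 striated genes were well above background in Cy3, and their part in the liver values of Des and Tpm2 was not tested.

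Whether the diet difference itself differed between colon and liver was tested as an interaction in limma. None of the 10 genes was called, nor was any of all probes (0%), with 2643 of 41174 at an unadjusted P below 0.05. The colon difference minus the liver difference ran from -0.55 for Tpm2 to 0.12 for Mylk, with a median of -0.16 (all probes, -0.030). No gene of the other lists described above passed the diet threshold in either tissue. The study reports higher myoglobin transcript and protein with the sufficient diet, whereas Mb, in the striated list, did not pass here.

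**Figure D3:**
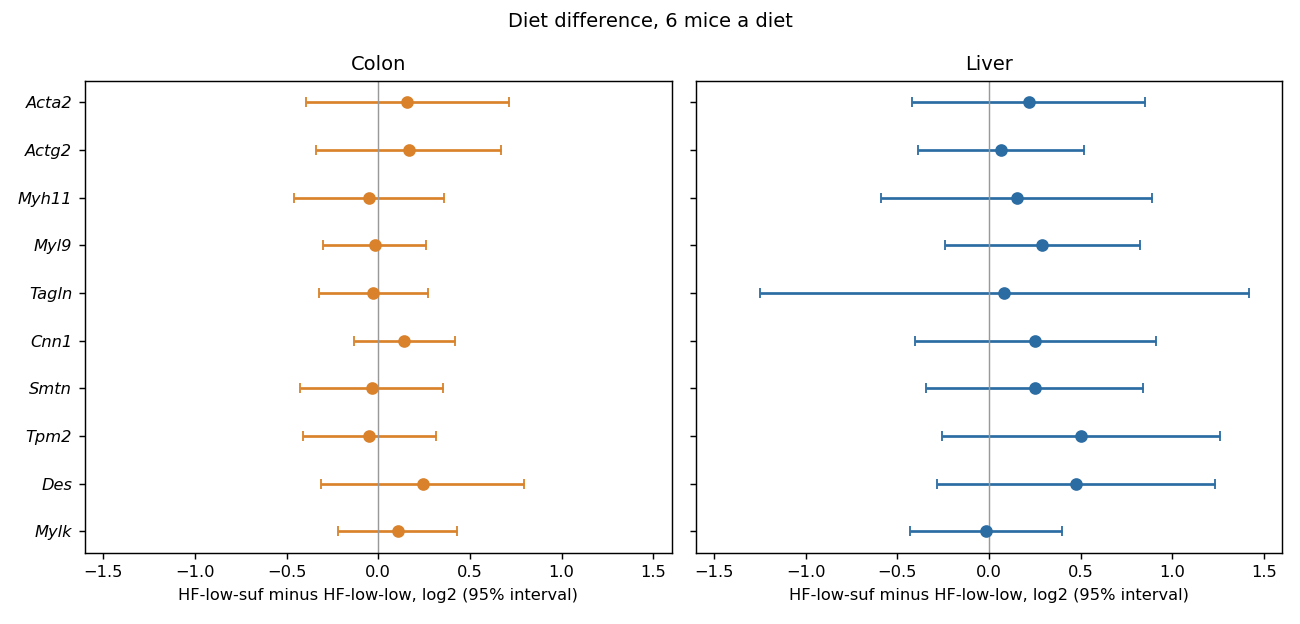
HF-low-suf minus HF-low-low on the log2 scale (x axis; estimate and 95% interval from limma, 6 mice per diet) for the main probe of the 10 genes (y axis) in colon and in liver. Each interval includes 0, and the liver intervals are the wider ones except for Actg2.

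The last comparison asked how far the contractile genes moved together over the 12 colons, as a measure of muscle content. Of the 45 pairs, 38 had a positive Pearson r, with a median of 0.48 and a range from -0.50 to 0.89. In a permutation test with 100000 resamples, 9 pairs passed Benjamini-Hochberg adjustment over the 45 pairs for Pearson r and 3 for Spearman rho. Among all pairs of the 13793 probes well above background on the 12 colon arrays, the median r was 0.004 and 50.3% were positive, against 84.4% of the pairs of contractile genes. An r above 0.7 was found in 3.94% of all pairs and in 20% of the pairs of contractile genes. These shares are a description and were not tested. In liver, which has no muscle coat, 43 of the 45 pairs were positive, with a median r of 0.50 and 9 pairs above 0.7. All values of a colon come from 1 array, so the genes share its labelling and normalisation.

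The 2 smooth muscle actins gave the highest correlation, r = 0.89 and rho = 0.92 (permutation P adjusted = 0.0040 and 0.0058). It was 0.82 without the 2 colons farthest from the median of Acta2, 0.84 within HF-low-low and 0.94 within HF-low-suf. These values are those of the main Acta2 probe, which lies in coding sequence that the actin genes share closely. Over the 12 colons its r was 0.61 with A_52_P420504, -0.52 with A_52_P210078 and -0.09 with A_52_P239556. With the dim A_52_P644232 it was 0.14. Myh11 and Tpm2 followed with r = 0.86 and rho = 0.80 (permutation P adjusted = 0.0061 and 0.048), and r was 0.80 without the 2 farthest colons. Des and Mylk had r = 0.85 and rho = 0.80 (permutation P adjusted = 0.016 and 0.048), and 0.57 without the 2 farthest. The other 6 pairs that passed for Pearson r did not pass for Spearman rho. Of these, Myh11 with Des was highest at r = 0.80, which became 0.13 without the 2 farthest colons. Actg2 with Smtn had r = 0.79, Cnn1 with Myl9 0.71, and Actg2 with Myh11 0.75, or 0.33 without the 2 farthest colons.

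The number of pairs that passed rested on few colons. With the 2 colons farthest from the median left out of each pair, the median r of the 45 pairs was 0.22. Leaving out extreme values narrows the range and tends to lower r by itself. Without HF-low-suf replicate 2 no pair passed, and without HF-low-low replicate 4 there was 1. Without HF-low-low replicate 2, HF-low-suf replicate 3 or HF-low-suf replicate 6 there were 4 pairs each. The median r of the pairs stayed between 0.35 and 0.51 when any 1 colon was left out. It was 0.40 within HF-low-low, 0.57 within HF-low-suf and 0.47 for residuals from the diet means. Without colon HF-low-suf replicate 5, the array with the bright Cy5 channel, 7 pairs passed and the median r was 0.43.

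**Figure D4:**
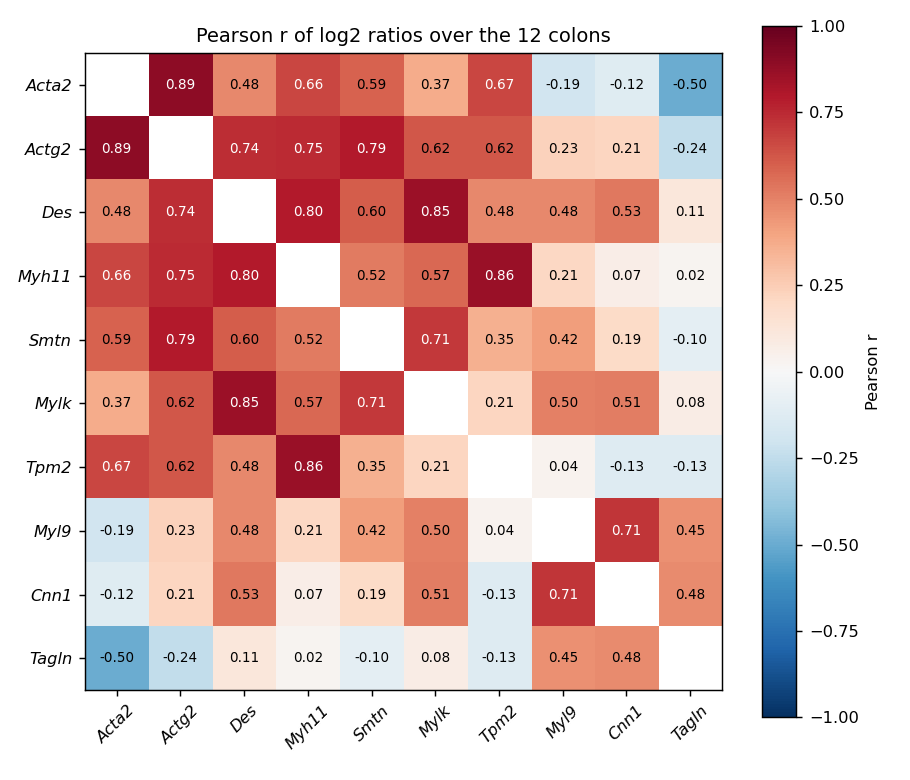
Pearson r of log2 ratios of the main probes over the 12 colons for each pair of the 10 genes (both axes list the genes, colour gives r). Acta2 with Actg2 (0.89), Myh11 with Tpm2 (0.86) and Des with Mylk (0.85) are highest, and the row of Tagln holds the lowest value, -0.50 with Acta2.

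Each gene was also set against the mean of the other 9, as a description. Actg2 (r = 0.89), Myh11 (0.86) and Des (0.85) followed it most closely, then Smtn (0.74), Mylk (0.74), Tpm2 (0.63) and Acta2 (0.60). Myl9 (0.37), Cnn1 (0.28) and Tagln (-0.07) followed it least. These 3 genes also varied least among colons of the same diet, with an SD of 0.18 for Myl9, 0.17 for Cnn1 and 0.20 for Tagln. Des and Acta2 had the widest, 0.52 each. The median SD was 0.31 for the 10 genes and 0.26 for the 13793 probes well above background on all 12 colon arrays. In liver the values were 0.59 for the 10 genes and 0.26 for the 9663 probes well above background on all 12 liver arrays. Myh11, Smtn and Cnn1 would not pass that filter, with 7, 7 and 11 of 12 liver arrays well above background.

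The probes of 1 gene did not always follow the other genes alike. The upstream Tagln probe, printed above, had r = 0.83 with the mean of the other 9 genes, against -0.07 for the main probe, and the correlation of both probes with each other was 0.40. Over the colons the upstream probe was lowest in HF-low-low replicate 4, at 1.92, and in HF-low-suf replicate 2, at 2.06, where the main probe had 2.64 and 2.62. Among the Acta2 probes, ordered from 5′ to 3′, r was 0.66 for the probe not well above background, 0.60 for the main probe, 0.67 for A_52_P420504, -0.59 for A_52_P210078 and -0.35 for A_52_P239556. The Mylk probes gave 0.74 and 0.71 and the Tpm2 probes 0.63 and 0.56, apart from the dim Mylk probe at -0.19. Over all 2503 genes with at least 2 bright probes, the upstream probe had the higher r with the mean of the 10 genes in 55.3%, with a median difference of 0.043.

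The mean of the 10 genes, each centred on its own mean over the colons, gave 1 value per colon. HF-low-low replicates 1 to 6 were at 0.14, -0.02, -0.08, -0.41, -0.07 and 0.25, and HF-low-suf replicates 1 to 6 at 0.19, -0.46, -0.01, 0.14, 0.13 and 0.21. One colon of each diet was thus well below the other 10. The whole range was 0.71 on the log2 scale, or 1.63-fold. HF-low-suf replicate 2 held the lowest of the 12 values for 6 of the 10 genes and HF-low-low replicate 4 for 2. Both were below the gene's own mean for 9 genes. In liver the range of the mean was 1.37, or 2.58-fold.

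**Figure D5:**
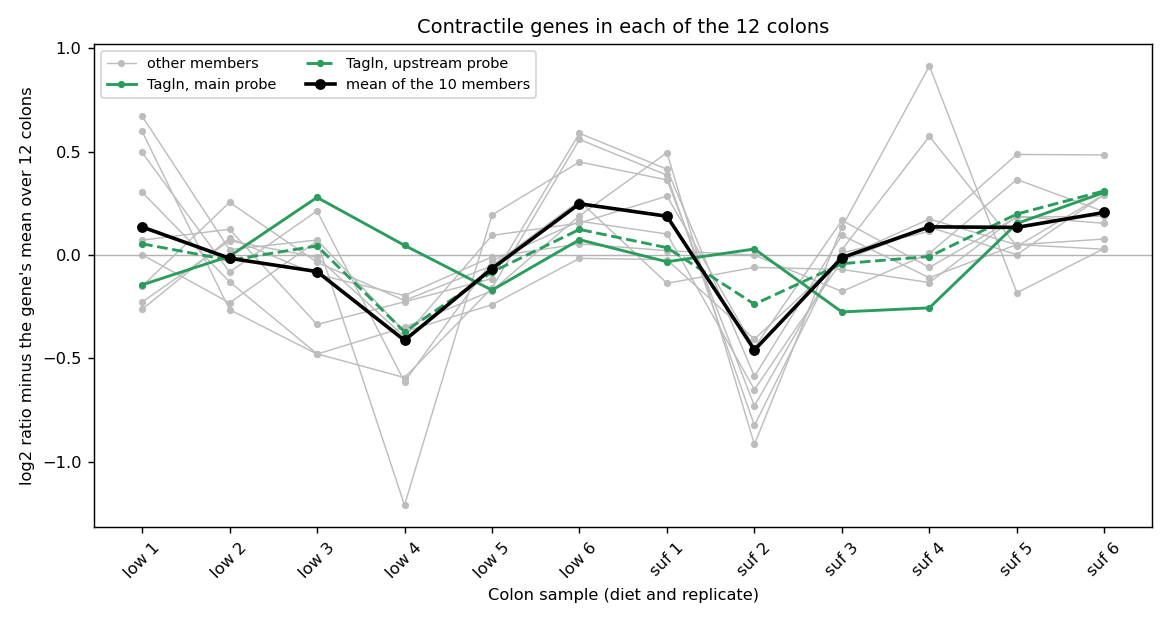
Log2 ratio minus the gene's mean over the 12 colons (y axis) in each colon (x axis), with the mean of the 10 genes in black, single genes in grey and both Tagln probes in green. HF-low-low replicate 4 (-0.41) and HF-low-suf replicate 2 (-0.46) are the low points of the mean, and the upstream Tagln probe dips there while the main Tagln probe does not.

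The genes most like the mean of the 10, as residuals from the diet means over the 12 colons, were sought among the 13793 bright probes. The closest were Csrp1, an actin-associated protein of smooth muscle (r = 0.97), the cytoskeletal linker Plec1 (0.97), Rrbp1 (0.96), NAP028816-1 (0.95), Tom1l2 (0.95), Wipi2 (0.95), Flywch1 (0.95), Thra (0.94), Pomgnt1 (0.94) and the actin cross-linker filamin A, Flna (0.94). Csrp1 and Flna, both in the list of other smooth muscle structure genes, were also higher in colon than in liver, the latter by 3.35 with this probe. Wipi2 was lower by 0.36 and Flywch1 and Pomgnt1 were not called. The least like were Tnpo1 (-0.95), Unc50 (-0.95), Snapc3 (-0.95), D230037D09Rik (-0.94) and Etfdh (-0.94), each gene taken by its probe with the lowest r, as the most like genes were by that with the highest. In all, 518 of the bright probes, 3.76%, had r above 0.8, and 59 probes of other genes had r above 0.9.

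Base composition of the probes moved with this mean. The median r with the mean was -0.25 among probes with at most 35% G and C and 0.30 among those with over 55%. The slope of log2 ratio on G and C content of an array had r = 0.56 (rho = 0.56) with the mean of the 10 genes over the 12 colons. Median Cy3 over background had r = -0.10 and Cy5 over background r = 0.05 (rho = -0.59). After a correction for base composition, 5 of the 45 pairs passed and the median r was 0.35. The second principal component of all bright probes, with 26.9% of the variance, had an r of size 0.78 with the mean of the 10 genes. The part of these differences in the co-variation was not tested.

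Means of other gene lists were set beside the mean of the 10 genes over the 12 colons, as a description. The list of other smooth muscle structure genes had r = 0.71, and 0.25 without the 2 colons farthest from the median. Striated muscle genes had r = 0.84 and 0.54. Contraction signalling had r = 0.17, transcription regulators -0.36 and non-muscle paralogues 0.49. Without the 2 farthest colons these were -0.30, -0.44 and 0.31, so contraction signalling changed sign. For the other cell types of the wall, r was 0.25 for endothelium, 0.19 for fibroblasts, 0.13 for colon epithelium, -0.01 for pericytes, -0.05 for enteric neurons, glia and pacemaker cells, and -0.22 for adipose tissue. Without the 2 farthest colons these were, in the same order, 0.42, 0.24, 0.13, 0.06, -0.08 and -0.11. Colon epithelium had r = -0.82 within HF-low-low and 0.85 within HF-low-suf. Enteric neurons, glia and pacemaker cells had 0.56 and -0.39, and pericytes 0.24 and -0.47. In liver, r was 0.89 for other smooth muscle structure, 0.78 for striated muscle, 0.76 for colon epithelium, 0.62 for fibroblasts, 0.60 for non-muscle paralogues, 0.55 for pericytes, 0.49 for adipose tissue, 0.46 for endothelium, 0.40 for hepatocytes, 0.31 for transcription regulators, 0.04 for contraction signalling and -0.50 for hepatic stellate cells. Without the 2 livers farthest from the median, these were, in the same order, 0.91, 0.68, 0.64, 0.43, 0.23, 0.50, 0.46, 0.35, -0.53, 0.52, 0.23 and -0.62, so hepatocytes changed sign.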

How the data were processed

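RNA of whole colon and liver of 12 mice was measured on 24 two-colour Agilent arrays, with 6 arrays per tissue and diet and no dye swap. Sample and reference RNA were amplified with T7 polymerase before labelling. The authors deposited scanner files of Feature Extraction 9.5, in which the intensity of each spot is the mean raw signal with its median local background, before any normalisation. Their methods name loess, limma and the threshold on P and fold change. The deposited log ratios were not used. Positions are those of the array files (mm7), and CArG boxes were read from RefSeq promoter windows (GRCm38.p6).

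From these intensities, log2 ratios were made in limma 3.58.1 (R 4.3.3) by normexp background correction (offset 50) and loess within each array. Excluded were 1639 control spots of 45018 and spots that the software marked as outliers. Repeat spots of a probe were averaged. Values are log2 of Cy3 over Cy5. "Well above background" is the scanner software's own mark in Cy3. Where a named probe was dim in all arrays of one tissue, its fold is given as a lower bound, taken against the dimmest probe signal well above background.

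Diets were compared within each tissue with lmFit and eBayes on 12 arrays. Tissues and the interaction were fitted on 24 arrays, with arrays of one mouse treated as correlated (duplicateCorrelation in limma, with statmod 1.5.0; correlation 0.16). Exact two-sided permutation tests used 924 assignments of mice for diet and 4096 sign changes for tissue. P-values measure the spread between mice, and the number of arrays limits their precision. The fits were tested on simulated data with known changes.

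The 10 genes, the lists and the tests were chosen with earlier results of these data known. Named were the 10 genes, the 2 largest and 2 smallest differences of each smooth muscle or striated list among genes well above background on at least 6 colon arrays, and the 10 most and 5 least like the mean of the 10 genes. For the striated list only the largest difference was named at the upper end. Acta1 and Tpm1 were added for their ratios to the pool, and Barx1, Foxf1a and Mkl2 were named only as dim. For cell type lists only counts and medians are given. Alternatives were plain background subtraction, no correction, Feature Extraction's processed signals, median centring, the Cy3 channel alone, outlier spots kept, the mean of all probes of a gene, a filter on dim probes, the mouse as a fixed block or no block, the slide as a block, all 24 arrays in one fit, single scan days, residuals from the diet means, and leaving out each mouse or array. Chosen after seeing the data were the next brightest Acta2 probe, a correction for probe GC content, and leaving out the 2 arrays with bright Cy5. For uncalled values, a change of sign counted as a reversal if the shift exceeded the standard error.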

Additional observations from a re-analysis of the deposited data

Results flagged for a closer look

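Samples of each group of 6 were checked for a single value far from the rest by Dixon's test at 95%, for the 10 genes and their mean in the 4 groups. Of 44 such checks 4 passed, where about 2.2 would pass by chance. All 4 were HF-low-suf replicate 2.

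In colon, Myh11 was 1.99 in that sample (log2 of sample over pool), and the other 5 lay between 2.62 and 2.94. Tpm2 was 0.72 there, against 1.11 to 1.30. The mean of the 10 genes was -0.46, against -0.01 to 0.21. In liver the same mouse was high: Tpm2 was -0.78, against -3.35 to -2.68 in the other 5. Its liver also had the highest mean of the striated muscle genes, 1.54 above the liver mean.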

How the results depend on the processing

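The count of genes higher in colon than in liver was 10 of 10 in every alternative tried, and the median difference lay between 3.43 and 4.03 (3.49 to 3.66 without any 1 mouse). With the mouse as a fixed replicate block it was 3.62, and without a replicate block 3.62, with 15334 and 14780 of all probes called against 15790. No gene was called for diet or the interaction in any alternative. With the slide as a replicate block the median diet difference was 0.043 in colon and 0.23 in liver, and the block changed no call of the 10 genes. Each mouse gave both tissues and each slide held both diets. The mouse and slide blocks could therefore move only the SE and the calls of complete probes, not their differences. Same-numbered arrays of the 2 diets correlated from -0.34 to 0.44 in colon (median 0.21, other numbers -0.04) and from -0.57 to 0.64 in liver (median -0.09, other numbers -0.04), so not every pair was above 0.1. Without any 1 array the median diet difference was 0.003 to 0.12 in colon and 0.052 to 0.37 in liver, and the interaction median -0.39 to -0.052.

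Some uncalled diet estimates changed sign in colon: with median centring Tagln was 0.13 and Myl9 0.13, with the mean of all probes Acta2 was -0.12, on scan day 1 Des was -0.065, and on scan day 2 Myh11 was 0.30 and Tpm2 0.31. The colon median was -0.056 on scan day 1 and 0.27 on scan day 2, and on that second day Acta2 in liver was -0.088. The interaction of Des, -0.23 with all mice, was 0.21 without HF-low-suf replicate 2, the highest value without any 1 mouse, and -0.52 without HF-low-suf replicate 6, the lowest. That of Tpm2, -0.55 with all mice, ran from -0.70 to -0.11 without any 1 mouse. The Tpm2 diet difference in liver, 0.50 with all arrays, ran from 0.14 to 0.65 without any 1 array.

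The pairs that passed numbered 9, but 2 with the mean of all probes 5 with the correction for GC content and 13 with median centring, and 0 to 12 without any 1 colon. The median r was 0.62 with median centring, 0.37 with Cy3 alone and 0.35 with the GC correction, and 0.35 to 0.51 without any 1 colon. The cause was not tested.

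Over all probes the diet threshold passed 69 in colon, against 13 without background correction, 26 with median centring, 23 with the mean of all probes, 3 with the filter on dim probes, 42 without the 2 arrays with bright Cy5, 92 with the slide block, and 278 and 104 on the single scan days. In liver it passed 47, against 12, 2, 30 and 2 in the first 4 of these, 21 with Cy3 alone, 131 with the slide block, 147 in one fit of all arrays and 2 on scan day 2. Without any 1 array it passed 23 (without HF-low-low replicate 1) to 257 (without HF-low-low replicate 5) in colon and 9 (without HF-low-low replicate 1) to 304 (without HF-low-low replicate 3) in liver, over 1.5 times more or fewer for every array but HF-low-low replicate 3 and HF-low-suf replicates 2, 4 and 6 in colon and HF-low-suf replicates 1, 2, 4 and 5 in liver. The processed signals moved the median of all probes between the tissues from -0.019 to 0.19. Dim probes, 6 arrays a group and 1 RNA pool without dye swap limit the precision.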
